A study of Mus musculus with 2 samples.

Results

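Aire, Fezf2, Prdm1, Irf8, Hdac3 and Chd4 are 6 genes that regulate transcription and chromatin in medullary thymic epithelial cells. They were taken by name from the 32285 genes counted, and all 6 had a row and passed the low-count filter. Their UMIs (unique molecular identifiers, each standing for 1 captured RNA molecule) were read in single thymic stromal cells of mice of the genotype E2F_M11. In these mice a pair of E2F binding sites in the proximal promoter of Foxn1, the master transcription factor of thymic epithelium, had been removed by CRISPR-Cas9. The total stroma of the thymus was depleted of CD45+ blood cells on magnetic beads and 2 libraries were made with 10x Genomics 3' chemistry. Both libraries carry the same genotype, so every comparison below is between cell states within these mice. The wild-type data set that the study compared them with was not analysed here. The labels give neither age nor sex, and do not say whether the libraries came from separate animals. The fit takes the library as a block, so p-values measure only how far differences between states varied between these libraries. That spread may be technical.

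The medulla of the thymus shows developing T cells the proteins of other organs, and T cells that react to them are removed or turned into regulatory cells. Aire, the autoimmune regulator, turns on many of these tissue-restricted antigens in mature medullary cells, which carry much MHC class II, and people without functional AIRE develop autoimmunity against several organs. Fezf2, a zinc-finger factor, controls another set of such antigens. Irf8 is an interferon regulatory factor best known from dendritic cells, and Prdm1 encodes Blimp1, a repressor that acts in terminally differentiating B cells and in keratinocytes. Chd4 is the ATPase of the NuRD remodelling complex and Hdac3 the deacetylase of the NCoR corepressor complex. Both have been studied in medullary epithelium.

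Library 1 held 5110 barcodes and library 2 held 19163, of which 3588 and 8186 were kept because they had 500 or more genes, 1000 or more UMIs and no more than 10% of UMIs from mitochondrial genes. The libraries stood apart in depth, with a median of 8727 UMIs per kept cell in library 1 and 1874 in library 2, and 30 barcodes occurred in both. Each cell was placed in a state by the UMIs of marker genes, none of which was one of the 6 genes, and this gave 1108 and 1424 epithelial cells. The states are named after their markers and written as "-like", since no annotation of the authors was used. The state of highest MHC class II markers held 297 and 357 cells, its 14 markers summed to 37599 and 35177 CPM (counts of UMIs scaled to a common total of 1e+06 per sum), and its leading genes over other epithelium included Spp1, S100a8 and Cd52, which are also known from immune cells. Ccl21a-high cells (387 and 228) were gated on the chemokine Ccl21a, Krt5, Krt14 and 6 further markers of less mature medullary cells. Their leading genes held Ccl21a and Krt5, and also Tagln, Col6a1, Col6a2 and Scx, which are known from mesenchymal cells, and their fibroblast markers summed to 333 and 847 CPM, so they are called by their marker only. Cortical (cTEC-like), dividing, tuft-like, keratinocyte-like and microfold-like epithelium held between 25 and 118 cells per library. Dividing cells were gated on cell cycle markers among epithelial cells, and no medullary marker was required. Fibroblasts, endothelial cells and thymocytes served as cells outside the epithelium. Summed fibroblast markers were 195 CPM in the MHC class II-high cells of library 1 and 719 CPM in library 2, and summed thymocyte markers were 122 and 401 CPM. In the dividing cells of library 2, thymocyte markers summed to 560 CPM in cells with an Aire UMI and 1129 CPM in those without. A level that a gene reaches in cells known to lack it is therefore given beside its results.

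In the GRCm38 annotation (mm10, the build named in the submitters' processing notes) Aire lies at chr10:78030022-78043610, Fezf2 at chr14:12342094-12348189 and Prdm1 at chr10:44437177-44528501, all on the minus strand, and Irf8 at chr8:120736358-120756694 and Chd4 at chr6:125095981-125130591 on the plus strand. Promoters of Aire, Irf8 and Fezf2 are shown because these 3 genes were higher in MHC class II-high cells than in Ccl21a-high cells, as the values further on give. Each is 250 bases before to 50 bases after the RefSeq start in GRCm38.p6, written 5′ to 3′ on the gene's strand, and it covers the start of that transcript's first exon. The Fezf2 window lies inside the annotated gene, whose 5′ end is at 12348189. The Prdm1 window searched further on (chr10:44458699-44458998) also lies inside its gene. The outer 5′ ends of these 2 genes were not searched. Capitals mark the letters CCAAT or TATAAA on either strand. Irf8 has a second RefSeq start, not shown, which held neither.
Aire, chr10:78043561-78043860, minus strand: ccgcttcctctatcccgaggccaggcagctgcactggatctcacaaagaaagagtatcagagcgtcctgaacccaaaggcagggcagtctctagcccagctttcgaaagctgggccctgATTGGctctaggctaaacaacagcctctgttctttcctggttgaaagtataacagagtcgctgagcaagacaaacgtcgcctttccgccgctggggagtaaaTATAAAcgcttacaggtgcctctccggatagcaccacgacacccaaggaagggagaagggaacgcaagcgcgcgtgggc
Irf8, chr8:120736108-120736407, plus strand: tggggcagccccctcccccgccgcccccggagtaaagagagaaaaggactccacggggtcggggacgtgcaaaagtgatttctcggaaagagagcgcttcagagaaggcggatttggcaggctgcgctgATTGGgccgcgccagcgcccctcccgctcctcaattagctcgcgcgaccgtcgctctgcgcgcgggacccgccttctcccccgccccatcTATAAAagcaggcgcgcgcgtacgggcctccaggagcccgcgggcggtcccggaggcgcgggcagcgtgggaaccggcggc
Fezf2, chr14:12345816-12346115, minus strand: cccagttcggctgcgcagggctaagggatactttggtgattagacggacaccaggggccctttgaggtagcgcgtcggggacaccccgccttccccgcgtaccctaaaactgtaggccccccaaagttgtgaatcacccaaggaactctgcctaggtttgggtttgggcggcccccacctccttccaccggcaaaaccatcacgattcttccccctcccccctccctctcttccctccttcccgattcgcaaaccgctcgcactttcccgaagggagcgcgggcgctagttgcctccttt
Aire and Irf8 shared a layout. Their TATAAA began 29 and 31 bases before the start, and CCAAT, read on the other strand, lay at 131 and 121 bases before it. The Fezf2 window held neither. TATAAA occurred on either strand in 13.6% and CCAAT in 37.4% of the 32851 promoters of this length. An interferon-response type repeat, GAAA with any 2 bases before another GAAA (3.44% of promoters), and TTTNNCGC, an E2F type motif (5.17% of promoters), were searched on both strands and were not in the windows of Aire, Fezf2, Irf8, Prdm1 or Chd4. Prdm1 and Chd4 each held CCAAT on 1 strand. Such a match, or its lack, describes letters only.

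Aire was high in 1 state above all. MHC class II-high cells reached 575 CPM of it (library 1) and 583 CPM (library 2). Dividing epithelial cells came next at 454 and 238 CPM, followed by cells with both MHC class II and Ccl21a markers at 265 and 170 CPM. Microfold-like cells, which carry genes of the antigen-sampling M cells of the gut, had 249 and 126 CPM, and keratinocyte-like cells had 172 and 67.2 CPM. The ranges of the 2 libraries overlapped between the 2nd and 3rd, the 3rd and 4th and the 4th and 5th of these states, but none of the other 10 states in the fit reached the level of MHC class II-high cells in either library. Cortical cells had 51.6 and 59.9 CPM. Ccl21a-high cells, at 6.87 and 16.5 CPM, were near the background set by fibroblasts at 3.57 and 7.42 CPM, thymocytes at 11.9 and 5.58 CPM and endothelial cells at 15.8 and 0 CPM. Tuft-like cells, which carry genes of the chemosensory tuft cells of mucosa, had 25.1 CPM in library 1 and 0 of 542373 UMIs in library 2, which allows up to 5.53 CPM. Outside the fit, epithelial cells with secretory markers (15 and 36 cells) had 408 and 81.2 CPM. Cells with myeloid markers (6 and 4 cells) had 363 and 51.9 CPM, from 17 and 1 UMIs. In bulk sums of this kind, fewer cells with a gene and less of its RNA per cell cannot be told apart, so detection per cell is given further on.

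**Figure D1:**
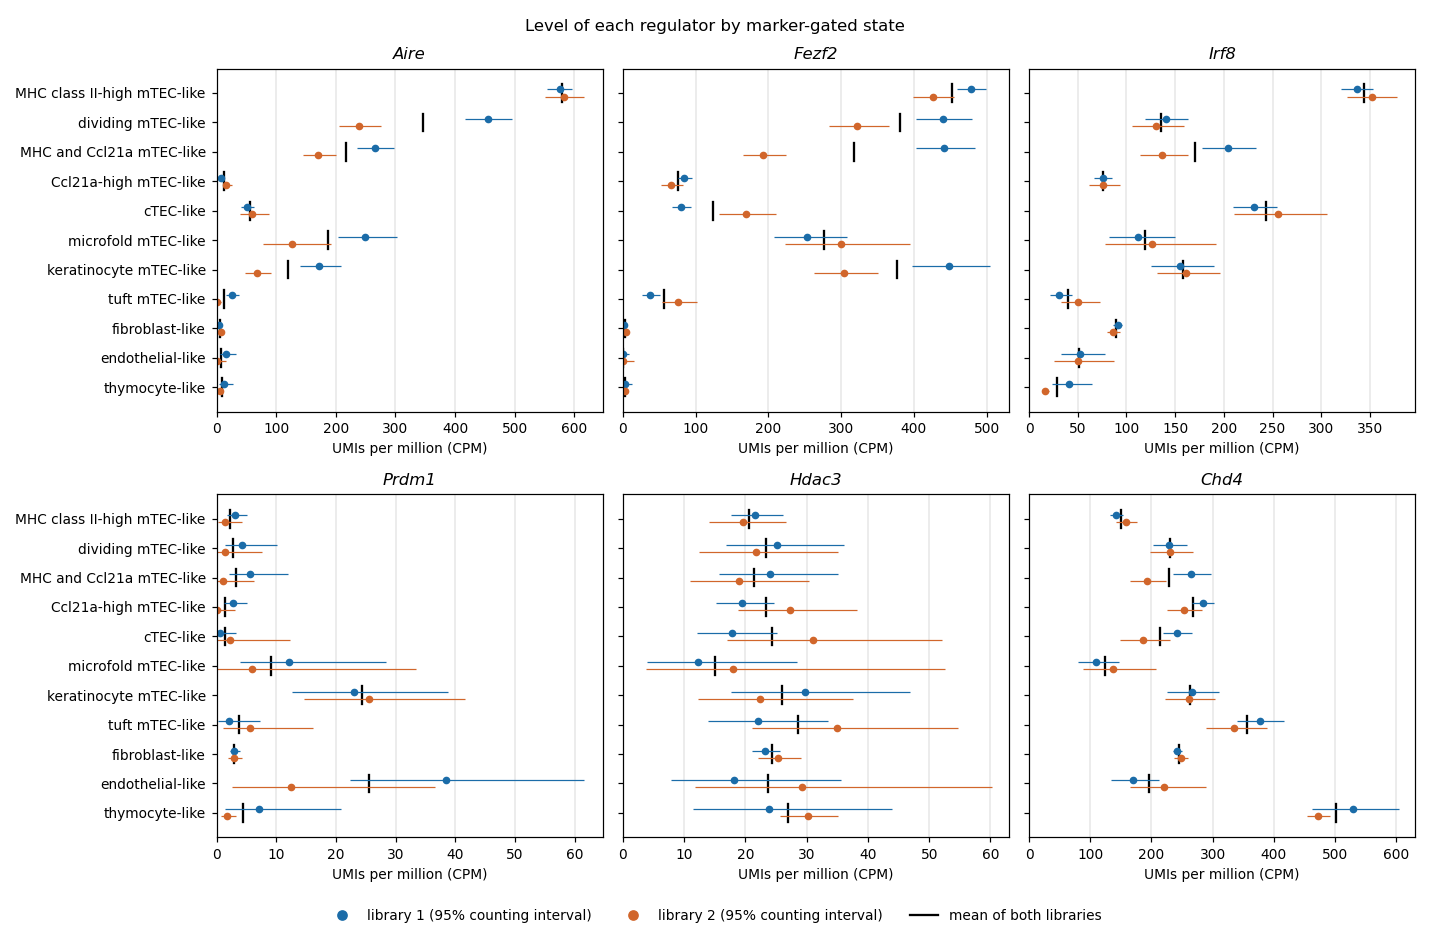
Level of each of the 6 genes (x axis, CPM, linear, starting at 0) in 11 marker-gated states (y axis). Points are the 2 libraries with their 95% counting intervals and black ticks are their means. Aire, Fezf2 and Irf8 are highest in MHC class II-high cells, Hdac3 is near 15 to 29 CPM in every state, and Chd4 is highest in thymocytes, with 530 and 473 CPM.

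Against Ccl21a-high cells the Aire level of MHC class II-high cells was higher by 5.94 ± 0.69 on the log2 scale (SE), or 61.3-fold, and its adjusted p was 1.40e-05 (edgeR's quasi-likelihood test on the sums of both libraries). Taken singly, the libraries gave 6.27 and 5.21. Against cortical cells the difference was 3.58 ± 0.61 (adjusted p = 5.77e-04). Against the mean of tuft-like and keratinocyte-like cells it was 3.96 ± 0.49 (adjusted p = 3.69e-05), and single libraries gave 3.15 and 6.32, the second a fitted value that depends on the prior count, since the tuft-like cells there held no Aire UMI. Against fibroblasts it was 6.67 ± 0.67 (adjusted p = 4.97e-07). Against dividing cells, the difference of 0.87 ± 0.52 did not pass (adjusted p = 0.293 in edgeR), and the libraries gave 0.36 and 1.38. The Aire gene overlaps Dnmt3l, a DNA methyltransferase cofactor on the opposite strand, over 1664 bases of the annotation. Use of strand in the counting is not given in the sources used here, so reads of the shared stretch could belong to either gene. Dnmt3l had 44.7 and 60.0 CPM in MHC class II-high cells, between 0.275 and 0.825 CPM in Ccl21a-high cells and 8.65 and 8.13 CPM in dividing cells.

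Fezf2 was spread over more of the epithelium. Its level was 479 and 426 CPM in MHC class II-high cells, 440 and 322 CPM in dividing cells and 449 and 304 CPM in keratinocyte-like cells, and these 3 ranges overlapped. Cells with both MHC class II and Ccl21a markers had 442 and 193 CPM, and microfold-like cells had 254 and 300 CPM. Lower levels came in cortical cells (79.7 and 169 CPM), Ccl21a-high cells (84.7 and 66.0 CPM) and tuft-like cells (37.1 and 75.6 CPM), in that order, of which only neighbours overlapped. Fibroblasts had 1.21 and 4.55 CPM, thymocytes 2.39 and 2.98 CPM, and endothelial cells 0 UMIs in both libraries, which allows up to 6.79 and 12.5 CPM. Every epithelial state in the fit thus lay above the non-epithelial states in both libraries, but under a stricter gate, given below, cortical cells had only 9.32 and 5.69 CPM.

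The Fezf2 level of MHC class II-high cells was higher than that of Ccl21a-high cells by 2.67 ± 0.48 (log2 ± SE, adjusted p = 6.27e-04 in edgeR), which is 6.36-fold. With epithelial cells holding a blood marker UMI left out it was 2.59, while the Aire difference from Ccl21a-high cells fell from 5.94 to 4.40. It was higher than that of tuft-like and keratinocyte-like cells by 1.77 ± 0.39 (adjusted p = 0.00441), although the keratinocyte-like cells of library 1 alone had 449 CPM. The difference from fibroblasts was 7.33 ± 0.61 (adjusted p = 1.33e-07). Against dividing cells it was 0.30 ± 0.45 and did not pass (adjusted p = 0.715). Against cortical cells it was 2.06 ± 0.49 (adjusted p = 0.00631), and this size rested on the gate. A stricter gate was also run for every state, in which cortical cells needed 200 rather than 100 marker UMIs per 10000. The 45 and 28 cortical cells left had 10 and 1 Fezf2 UMIs (9.32 and 5.69 CPM), and the Fezf2 difference was 6.14 (adjusted p = 9.44e-07 in edgeR). Under that gate the Aire difference from cortical cells was 5.04, with 27.0 and 11.4 CPM in the cortical cells. The 22 and 61 keratinocyte-like cells that it left had 160 and 6.79 CPM of Aire (81 and 3 UMIs) and 388 and 256 CPM of Fezf2. In the wider cortical gate of library 1, unthinned, Fezf2 was in 5 of 10 cells with Aire and 4 of 66 without. Its level there was 497 and 7.40 CPM, and myeloid and dendritic markers summed to 385 and 19.5 CPM. How far a mixture of states in that gate sets the cortical levels was not tested.

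**Figure D2:**
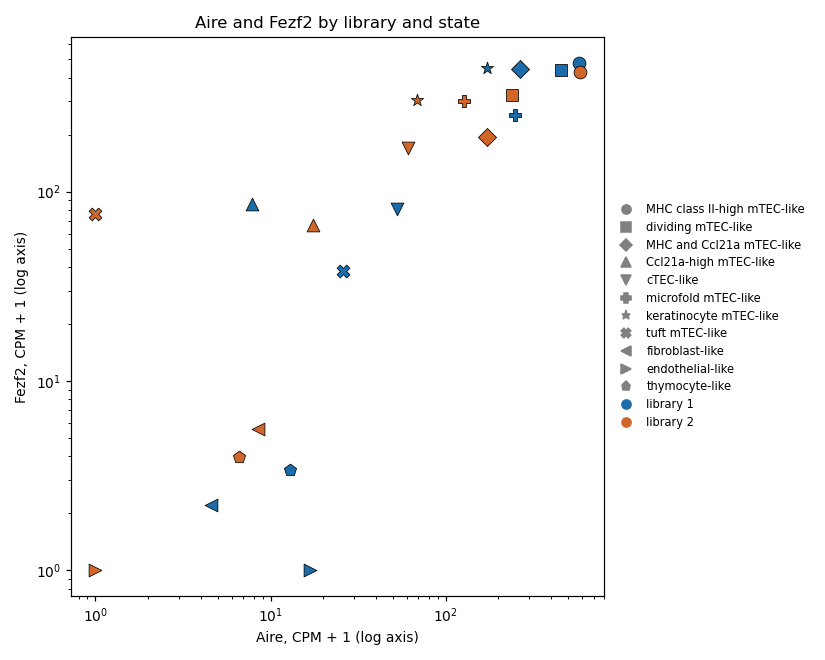
Aire (x axis) and Fezf2 (y axis), each as CPM + 1 on a log axis, with 1 point per library and state. Keratinocyte-like cells have Fezf2 at 449 and 304 CPM, against 479 and 426 CPM in MHC class II-high cells, with less Aire (172 and 67.2 CPM against 575 and 583 CPM), and Ccl21a-high cells have Fezf2 at 84.7 and 66.0 CPM with Aire near the level of non-epithelial cells.

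Irf8, the interferon regulatory factor, was also highest in MHC class II-high cells among the states in the fit, with 336 and 352 CPM. Cortical cells had 231 and 255 CPM, the next highest range. Cells with both MHC class II and Ccl21a markers had 204 and 137 CPM, keratinocyte-like cells 155 and 162 CPM, dividing cells 140 and 130 CPM and microfold-like cells 119 ± 9.63 CPM (SD, n = 2). Fibroblasts carried 91.2 and 86.6 CPM, above Ccl21a-high cells (75.6 and 75.9 CPM) and thymocytes (40.6 and 16.8 CPM). Cortical cells thus came second for Irf8, with no overlap with the states on either side, while they were 6th for both Aire and Fezf2.

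The Irf8 level of MHC class II-high cells exceeded that of Ccl21a-high cells by 2.29 ± 0.24 (adjusted p = 5.28e-06 in edgeR) and that of tuft-like and keratinocyte-like cells by 2.24 ± 0.20 (adjusted p = 4.08e-06). It exceeded that of fibroblasts by 1.89 ± 0.23 (adjusted p = 3.40e-06). Irf8 alone among the 6 genes also passed against dividing cells, with 1.41 ± 0.23 (adjusted p = 0.00107 in edgeR). Against cortical cells the difference of 0.63 ± 0.23 lay at the threshold (adjusted p = 0.0502) and passed under 4 of 7 alternatives, among them DESeq2 (adjusted p = 0.0063). Irf8 is abundant in myeloid cells, and the few cells with myeloid markers (6 and 4) had 875 and 2128 CPM. The 11 myeloid and dendritic markers summed to 863 and 737 CPM in MHC class II-high cells, against 16.2 and 11.6 CPM in Ccl21a-high cells. Lyz2, the lysozyme gene, made up 686 and 544 CPM of that sum, and other myeloid markers were also above their level in Ccl21a-high cells. Fcer1g was at 75.4 and 47.0 CPM (1.37 and 0.825 CPM in Ccl21a-high cells), C1qb at 41.8 and 56.2 CPM (2.20 and 0 CPM), C1qa at 17.1 and 61.4 CPM (1.92 and 3.30 CPM) and Csf1r at 14.2 and 8.16 CPM (0.550 and 0.825 CPM), while Itgax, which encodes CD11c, was at 0.824 and 0 CPM. Every epithelial cell that held a UMI of a thymocyte, B cell or myeloid and dendritic marker was then left out. Ptprc, Coro1a and Laptm5 did not count for this blood marker filter. The 24 and 23 MHC class II-high cells that remained had 357 and 409 CPM of Irf8. The difference from Ccl21a-high cells was 2.40 (adjusted p = 1.53e-04 in edgeR). Aire in those same cells was at 166 and 155 CPM and its difference was 4.40 (adjusted p = 0.00208), while Fezf2 was at 341 and 653 CPM. This filter also removes every epithelial cell with a Lyz2 UMI and left shallower cells. In library 1, MHC class II-high and dividing cells that passed it had a median of 3757 UMIs with Aire and 2432 without. Before the filter these medians were 19685 and 5501. The part of depth, of Lyz2 or of blood cell RNA in the changes was not tested.

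**Figure D3:**
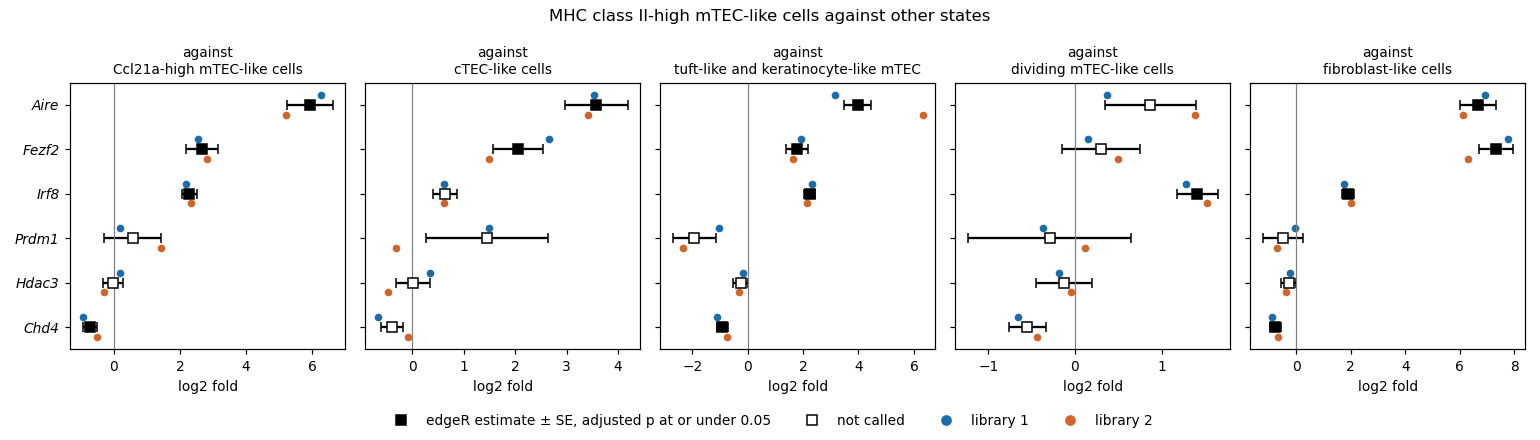
Difference in log2 level between MHC class II-high medullary cells and 5 other states (1 panel each). Squares are edgeR estimates ± SE, filled where the adjusted p is at or under 0.05, and circles are the single libraries. The squares of Aire, Fezf2 and Irf8 are to the right of 0 in every panel, those of Chd4 to the left, and those of Hdac3 within 0.29 of 0, while its single libraries reach 0.36 and -0.48.

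Prdm1 was scarce in most of the epithelium, with 166 UMIs in all kept cells of library 1 and 116 in library 2. Its level was 3.09 and 1.44 CPM in MHC class II-high cells, and at most 5.54 CPM in dividing, cortical, tuft-like and Ccl21a-high cells and in those with both marker sets. In keratinocyte-like cells, 14 and 16 UMIs gave 23.1 and 25.6 CPM. The 95% counting intervals there, 12.6 to 38.7 and 14.6 to 41.6 CPM, lay above those of MHC class II-high cells, 1.73 to 5.09 and 0.297 to 4.21 CPM, in the same library. Unthinned, 20.7% and 8.47% of keratinocyte-like cells held a Prdm1 UMI, against 2.38% and 1.09% of fibroblasts. Endothelial cells had 38.5 and 12.5 CPM and microfold-like cells 12.2 and 5.99 CPM. None of the 5 comparisons passed for Prdm1. The nearest was that with tuft-like and keratinocyte-like cells, at -1.93 ± 0.78 (adjusted p = 0.0873), with -1.03 and -2.35 in the single libraries.

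Hdac3 varied little from state to state. Its means ran from 15.1 ± 4.09 CPM (SD, n = 2) in microfold-like cells to 28.6 ± 9.15 CPM in tuft-like cells, and the library ranges of neighbours in this order overlapped, except that microfold-like cells lay below the MHC class II-high cells above them. MHC class II-high cells had 21.6 and 19.7 CPM. The 5 differences lay between -0.29 ± 0.27 and 0.02 ± 0.32 on the log2 scale, none passed (lowest adjusted p = 0.402), and the sign against Ccl21a-high cells changed under other scalings.

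Chd4 was lower, not higher, in the state of most Aire. MHC class II-high cells had 143 and 158 CPM, the lowest range after microfold-like cells at 110 and 138 CPM. Ccl21a-high cells had 284 and 252 CPM, tuft-like cells 377 and 336 CPM and thymocytes 530 and 473 CPM. The MHC class II-high cells were lower in 3 comparisons, with a log2 difference of -0.73 ± 0.21 from Ccl21a-high cells (adjusted p = 0.0149 in edgeR), -0.92 ± 0.19 from tuft-like and keratinocyte-like cells (adjusted p = 0.00298) and -0.77 ± 0.21 from fibroblasts (adjusted p = 0.00597). Against cortical cells the difference was -0.39 ± 0.22 (adjusted p = 0.203), and against dividing cells it was -0.55 ± 0.22 (adjusted p = 0.104).

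In the comparison with Ccl21a-high cells, 4 of the 6 genes passed (3 higher, 1 lower), beside 33.9% of the 13522 genes tested (19.8% higher, 14.1% lower). Against cortical cells 2 passed, both higher, beside 25.5% of all genes (14.7% higher, 10.8% lower). Against tuft-like and keratinocyte-like cells 4 passed (3 higher, 1 lower), beside 21.4% (12.6% higher, 8.81% lower). Against dividing cells 1 passed, higher, beside 13.3% (6.88% higher, 6.4% lower), and against fibroblasts 4 passed (3 higher, 1 lower), beside 51.2% (26.7% higher, 24.5% lower). These states differ in a large share of all genes, so against cortical cells, dividing cells and fibroblasts the count among the 6 genes is near the background.

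Detection per cell depends on depth, so each cell was thinned to 1000 UMIs. An Aire UMI was then present in 35.4% of MHC class II-high cells in library 1 (95% exact binomial interval 29.9 to 41.1%) and in 28.9% in library 2 (24.2 to 33.9%). The share was 0.116% and 1.24% in fibroblasts, which should lack the gene. Unthinned, it was 73.4% and 50.1% in MHC class II-high cells (median 16436 and 2306 UMIs) and 3.24% and 2.53% in fibroblasts (median 8942 and 2398 UMIs). Dividing cells, thinned, had an Aire UMI in 35.0% and 10.6%, and unthinned in 77.5% and 37.2%. Cells of the MHC class II-high state that held Aire had a median of 9 Aire UMIs in library 1 and 3 in library 2, and up to 76 and 80.

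Fezf2 was detected outside the Aire state as well. Unthinned, 38.5% and 18.9% of Ccl21a-high cells held a Fezf2 UMI, against 1.04% and 1.55% of fibroblasts, while 5.17% and 3.51% of the Ccl21a-high cells held an Aire UMI, against 3.24% and 2.53% of fibroblasts. Among keratinocyte-like cells 89.7% and 29.7% held Fezf2 and 31.0% and 3.39% held Aire. Thinned to 5000 UMIs, 73.6% and 75.0% of all epithelial cells with Aire also held Fezf2, and 49.7% and 52.2% of those with Fezf2 also held Aire. Of the epithelial Aire cells at that depth 61.0% and 58.9% were MHC class II-high and 4.33% and 0.893% were Ccl21a-high, whereas 42.0% and 36.0% of the Fezf2 cells were MHC class II-high and 24.5% and 10.6% were Ccl21a-high.

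Whether Aire and its companions sit in the same cells was read within the MHC class II-high and dividing cells. At 1000 UMIs, Fezf2 was found in 38.7% of 119 cells with Aire and 33.0% of 218 without in library 1, and in 21.2% of 113 and 20.7% of 338 in library 2. The differences were 5.63 percentage points (95% interval -4.88 to 16.4) and 0.529 points (-7.48 to 9.84), so none was detectable at this depth. At 5000 UMIs, a depth added after seeing the data that leaves 271 of 337 and 129 of 451 cells, Fezf2 was found in 78.1% of 178 cells with Aire and 48.4% of 93 without in library 1, and in 78.2% of 87 and 45.2% of 42 in library 2. The differences were 29.7 points (17.7 to 41.0) and 32.9 points (15.2 to 48.8). The Fezf2 level at that depth was 531 CPM with Aire and 256 CPM without in library 1, and 487 and 219 CPM in library 2. Cells with Aire thus held Fezf2 more often than cells without it in both libraries at 5000 UMIs. Within MHC class II-high cells alone the differences were 29.8 points (16.9 to 41.7) and 41.0 points (17.6 to 59.2), but at 2000 UMIs they were 6.42 points (-5.38 to 17.9) and 7.33 points (-6.02 to 20.3). Before thinning, the cells of both states with Aire had a median of 20733 and 17165 UMIs and those without had 15786 and 11308. The intervals cover counting error only, since cells of a library are not replicates. Fibroblast markers summed to 170 CPM in cells with Aire and 269 CPM in cells without in library 1, and to 786 and 1405 CPM in library 2. Myeloid and dendritic markers summed to 774 CPM with Aire and 884 CPM without in library 1, and to 669 and 224 CPM in library 2 (848 and 113 CPM in MHC class II-high cells alone). The part of either in the difference was not tested.

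**Figure D4:**
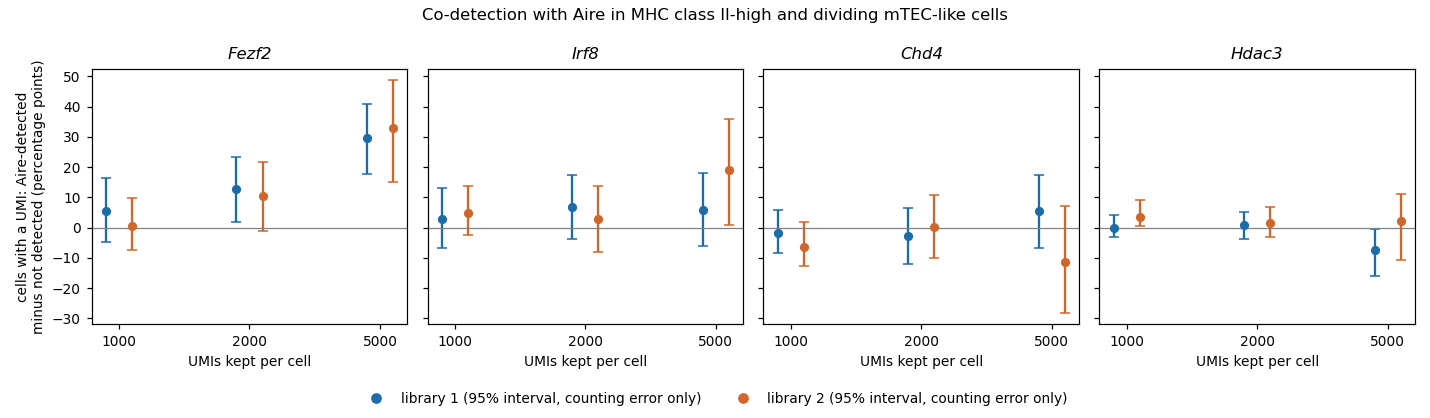
Difference in the share of cells with a UMI of Fezf2, Irf8, Chd4 or Hdac3 between cells with and without an Aire UMI (y axis, percentage points), by the number of UMIs kept per cell (x axis), within MHC class II-high and dividing cells. Points are the 2 libraries and bars 95% intervals of counting error. For Fezf2 the difference is 29.7 and 32.9 points at 5000 UMIs, and for Chd4 every interval includes 0.

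Irf8 at 5000 UMIs was found in 61.8% of cells with Aire and 55.9% without in library 1, and in 64.4% and 45.2% in library 2. The differences were 5.88 points (-6.23 to 18.1) and 19.1 points (0.988 to 35.9), but within MHC class II-high cells alone the intervals were -6.98 to 18.4 and -9.17 to 34.8 points, while its level was 290 CPM with Aire against 325 CPM without in library 1 and 262 against 286 CPM in library 2. Share and level thus pointed in opposite directions. Chd4 was found in 43.3% with Aire and 37.6% without in library 1 and in 48.3% and 59.5% in library 2, and both intervals of the difference included 0. Hdac3 differed by -7.29 points (-16.0 to -0.338) and 2.05 points (-10.6 to 11.2). At 1000 UMIs it differed by -0.154 points (-3.20 to 4.23) in library 1 and 3.54 points (0.503 to 9.09) in library 2. The intervals of Irf8, Chd4 and Prdm1 at 1000 UMIs included 0 in both libraries. The values that follow are again at 5000 UMIs. Prdm1 was in 1 of 178 and 4 of 93 cells in library 1 and in 1 of 87 and 0 of 42 in library 2, where 0 of 42 allows up to 8.41% by the exact binomial interval.

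Tissue-restricted antigens were read in the same cells. Csn2, which encodes the milk protein beta-casein, was found at 5000 UMIs in 78.7% of cells with Aire and 47.3% without in library 1 (interval of the difference 19.3 to 42.6 points), and in 74.7% and 35.7% in library 2 (20.8 to 54.0 points). Of the 16 antigens on the list, S100a8, S100a9 and Gad1 were the others whose interval lay above 0 in library 1 at that depth. None of them did so in library 2 at that depth. Gad1, the glutamate decarboxylase of neurons, was in 15.2% and 3.23% of cells in library 1 and in 8.05% and 0% in library 2. At 2000 UMIs the interval of S100a8 lay above 0 in library 1 (2.32 to 21.8 points) and library 2 (17.3 to 37.6 points). At 1000 UMIs it was -1.47 to 17.9 points in library 1 and 8.23 to 27.1 points in library 2. Between states, 10 of 15 tested antigens were higher and 0 lower in MHC class II-high than in Ccl21a-high cells, beside 19.8% and 14.1% of all genes, with a median of 5.02 (log2) beside 0.02 over all genes. The lowest adjusted p values belonged to Csn2 (6.83 ± 0.80), Fabp9, a fatty acid binding protein of testis (4.87 ± 0.69), and Mucl2, a mucin-like gene (5.69 ± 0.85). The other 5 did not pass. Against cortical cells 11 rose, against tuft-like and keratinocyte-like cells 11, against fibroblasts 15 and against dividing cells 7, with 0 lower in each. An antigen almost absent from the other state can hardly come out lower. Csn1s2a and Ins2 were each at 0.275 and 0 CPM in Ccl21a-high cells, while Crp, at 26.1 and 10.7 CPM there, had room to be lower. For antigens of the first kind, 0 lower is no result to set beside all genes. How far they raise the median was not tested. In dividing cells, where Aire was 454 and 238 CPM, Fabp9 was 5.19 and 8.13 CPM and Pcp4, a Purkinje cell protein, 0 and 1.35 CPM. MHC class II-high cells had 221 and 268 CPM of Fabp9 and 337 and 233 CPM of Pcp4. Fabp9 was highest in microfold-like cells, at 954 and 3104 CPM, and so was Csn2, at 1754 and 3314 CPM against 1115 and 739 CPM in MHC class II-high cells.

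The genes known to lie upstream of Aire were mixed. Without the markers Cd40 and Tnfrsf11a, 5 of 13 tested were higher and 1 lower than in Ccl21a-high cells, beside 19.8% and 14.1% of all genes, with a median of 0.51 beside 0.02 over all genes. Irf4, a partner factor of NF-kB in activated lymphocytes, was 35.8 and 43.7 CPM against 4.67 and 3.30 CPM, a difference of 3.34 ± 0.44. Traf6, the adaptor of RANK and CD40 signalling, differed by 2.22 ± 0.31 and Relb, the non-canonical NF-kB subunit, by 1.39 ± 0.22, a call that Relb lost (0.73, adjusted p = 0.439) with cells holding a blood marker UMI left out. Irf7, an interferon-response factor, was the gene that fell (-2.13 ± 0.38). Against cortical cells 4 were higher and 2 lower (14.7% and 10.8% of all genes), with Irf4 (2.77 ± 0.48), Nfkb2 (1.29 ± 0.22) and Relb (1.01 ± 0.23) foremost. Against tuft-like and keratinocyte-like cells 4 were higher and 2 lower (12.6% and 8.81% of all genes), led by Relb (1.91 ± 0.20), Nfkb2 (1.24 ± 0.19) and Traf6 (1.89 ± 0.29), and against fibroblasts 5 and 3, led by Irf4, Relb and Tbx21, where 26.7% of all genes were higher and 24.5% lower. Against dividing cells 1 was higher, Irf1 (1.29 ± 0.29), beside 6.88% of all genes, or 4 with RLE or DESeq2 scaling, while Irf4 was 39.8 and 37.9 CPM there and so overlapped with MHC class II-high cells.

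Of genes whose proteins bind Aire or act on it, 20 were tested after leaving out the marker Top2a, and 1 was higher and 5 were lower than in Ccl21a-high cells (median -0.28), beside 19.8% of all genes higher and 14.1% lower. The higher gene was Sirt1, a deacetylase that acts on Aire, at 277 and 207 CPM against 31.3 and 37.1 CPM (2.94 ± 0.35). Sirt1 was also the only partner higher against cortical cells (2.45 ± 0.36, with 2 lower), tuft-like and keratinocyte-like cells (2.43 ± 0.29, with 5 lower) and dividing cells (1.51 ± 0.33, with 3 lower) in edgeR with TMM scaling. Against fibroblasts it was 1 of 2 (3.78 ± 0.35, with 6 lower), where 26.7% of all genes were higher and 24.5% lower. Against cortical cells 10.8% of all genes were lower, so the 2 of 20 partners lower there are near the background. Xrcc5, the Ku80 DNA repair protein, fell against Ccl21a-high cells (-1.36 ± 0.24) and cortical cells (-1.76 ± 0.25), and so did Top2b, a topoisomerase (-1.11 ± 0.26 and -0.76 ± 0.27). The call of Top2b against cortical cells was kept in 1 of 7 alternatives, and with cells holding a blood marker UMI left out neither Sirt1 (1.70, adjusted p = 0.109) nor Xrcc5 (adjusted p = 0.434) nor Top2b (adjusted p = 0.308) passed against Ccl21a-high cells. Parp1 (-1.64 ± 0.36) and Hnrnpl (-0.77 ± 0.21) were lower than in dividing cells, and the call of Hnrnpl was kept in 4 of 6 alternatives.

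Of 12 other subunits of NuRD, the complex of Chd4, 7 were lower and 0 higher than in Ccl21a-high cells, beside 14.1% and 19.8% of all genes, with a median of -0.64 beside 0.02 over all genes. Gatad2a was 31.5 and 26.9 CPM against 59.7 and 56.9 CPM (-0.89 ± 0.21), and Mta2 (-1.01 ± 0.24) and Mbd2 (-0.89 ± 0.23) were lower as well. With cells holding a blood marker UMI left out, none of these 3 passed, with 0.15 for Mta2 (adjusted p = 0.972), 0.23 for Mbd2 (adjusted p = 0.859) and an adjusted p of 0.571 for Gatad2a, which was also lost with stricter cell filters. Mta1, Gatad2b, Chd3 and Mbd3 made up the 7. The deacetylases Hdac1 (0.33) and Hdac2 (0.03) and the histone-binding Rbbp4 (-0.16) and Rbbp7 (0.44) did not pass, nor did Mta3 (0.27). Against cortical cells 3 were lower (Mbd2, Gatad2a and Mta2), against dividing cells 2 (Mbd3 and Mta2) and against fibroblasts 6, and 0 were higher in edgeR with TMM scaling. The call of Mta2 against cortical cells was kept in 1 of 7 alternatives and against dividing cells in 3 of 6, that of Gatad2a against cortical cells in 5 of 7, and RLE and DESeq2 each gave 2 lower against cortical cells. With RLE scaling 2 subunits and in DESeq2 3 subunits were higher against fibroblasts. Against tuft-like and keratinocyte-like cells 4 were lower and Chd3, the other ATPase of the complex, was higher (0.82 ± 0.19). Of the genes that encode partners of Hdac3 in the NCoR complex, Tbl1xr1 (-1.44 ± 0.27) and Tbl1x (-0.75 ± 0.24) were lower than in cortical cells, and Ncor1 (-0.60 ± 0.20) and Tbl1xr1 (-0.71 ± 0.26) than in fibroblasts. The calls against fibroblasts were kept in 6 of 8 alternatives for Ncor1 and in 3 of 8 for Tbl1xr1, and that of Tbl1x against cortical cells in 5 of 7.

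**Figure D5:**
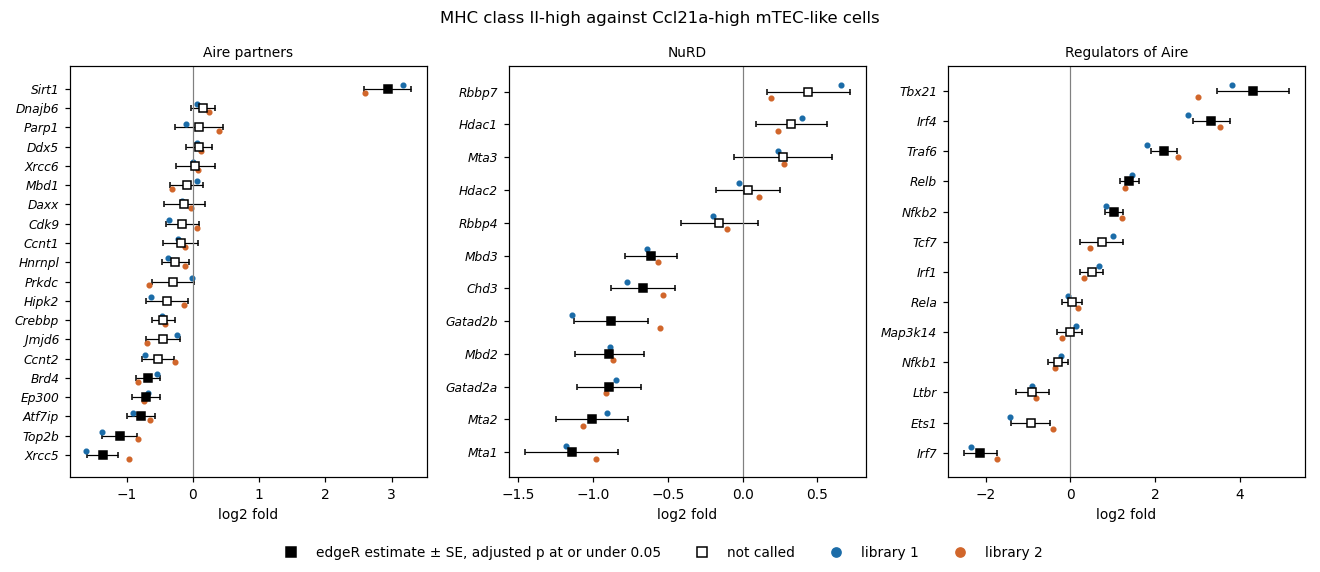
Differences (x axis, log2) between MHC class II-high and Ccl21a-high cells for genes of 3 lists (regulators of Aire, Aire partners and NuRD, y axis), without genes that served as markers. Squares are edgeR estimates ± SE, filled where the adjusted p is at or under 0.05, and circles are the single libraries. In NuRD, 7 of 12 are filled and to the left of 0, and among Aire partners Sirt1 alone is filled and to the right.

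Over the 22 sums of 11 states and 2 libraries, Pearson's r of log2(CPM + 1) was 0.78 between Aire and Fezf2, 0.73 between Aire and Irf8 and 0.71 between Fezf2 and Irf8. Chd4 had -0.52 with Aire and -0.63 with Irf8, and Prdm1 lay between -0.17 and -0.06 with every other gene of the 6. These sums share libraries and depth, and the values are descriptions. The 5 genes most like Aire were Irf4 (r = 0.94), Gm14275 (0.94), Gm47938 (0.93), Hdc, the histidine decarboxylase (0.93), and Calcb, a calcitonin-related peptide (0.92). Those most like Fezf2 were Skint10, Rnf180, Lad1, Bspry and S100a14 (0.97 to 0.96). Most like Irf8 were Ache, the acetylcholinesterase (0.87), Pgrmc1, Relb, Mccc1 and Dusp22 (0.84). Prdm1 had weaker matches in Arrdc2, Ipmk, Actn4, Sh3tc1 and Itpripl1 (0.77 to 0.75). Skint10 followed Fezf2 into keratinocyte-like cells, with 396 and 366 CPM there against 398 and 320 CPM in MHC class II-high cells. Hdc followed Aire, with 451 and 354 CPM in MHC class II-high cells, 293 and 274 CPM in dividing cells and 4.95 and 14.9 CPM in Ccl21a-high cells.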

How the data were processed

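Single thymic stromal cells of 2 libraries of 1 genotype were counted. The deposited matrices hold raw UMI counts per gene and barcode. They were made with Cell Ranger 6.0.0, per the file headers. The submitters' processing notes list version 7 of Cell Ranger, version 4 of Seurat and the mm10 build, and no further settings were known here. The libraries held 41075328 and 42583831 UMIs.

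Cells were filtered and placed in states by marker genes. The markers were listed before the gate was built, but its thresholds (marker UMIs per 10000) were set after seeing the data, and another gate was run as a check. Cells that passed 2 lineages (14 and 40) were left out of the sums, 13.6% and 39.9% of kept cells had no state, and no doublet caller was run. Raw counts were summed per library and state. The 11 states with at least 20 cells in both libraries gave 22 sums, fitted in edgeR 4.0.16 (R 4.3.3, TMM, filterByExpr, quasi-likelihood, library as a block, 10 residual degrees of freedom), with Benjamini-Hochberg adjustment over 13522 genes and a threshold of 0.05. The block rests on both libraries holding every state. DESeq2 1.42.0 was an alternative. Detection per cell used cells thinned to 1000, 2000 or 5000 UMIs, exact binomial intervals and Newcombe intervals of differences. A count of 0 is given with the limit that 3 counts allow. All intervals and limits cover counting error only.

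The fit was tested on simulated counts for MHC class II-high against Ccl21a-high cells, with known changes in 98 genes of each size. It recovered 13.3% of changes of 1 on the log2 scale and 65.3% of changes of 2, and 8.33% of its calls were false. A difference that did not pass is therefore no evidence of equal levels. The 6 genes and all lists were chosen with earlier results of these data known. Besides the 6, the text names per list and comparison the 3 passing genes of lowest adjusted p, and the 5 genes most like Aire, Fezf2, Prdm1 and Irf8. Other genes named were chosen after their values were seen. Markers were left out of list counts, and Ctcfl and Mup4 did not pass the filter. Of the corepressor complex of Hdac3, 1 gene and the counts over its list are not reported here.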

Additional observations from a re-analysis of the deposited data

Results flagged for a closer look

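Aire UMIs also lay outside the gated states, in cells that no comparison used. In kept cells with no assigned state there were 382 Aire UMIs in library 1 (65 of 489 cells, 103 CPM) and 451 in library 2 (268 of 3264 cells, 50.2 CPM). The limit that a count of 0 allows was 0.809 and 0.334 CPM. In barcodes that failed the cell filters there were 451 Aire UMIs in library 1 (116 of 1522 barcodes, 140 CPM) and 481 in library 2 (308 of 10977 barcodes, 41.7 CPM), against limits of 0.932 and 0.260 CPM. Which states these barcodes belong to was not tested.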

How the results depend on the processing

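Of the 30 differences of the 6 genes, 15 passed, and all 15 kept their direction and their side of the threshold under each tested alternative that gave a value. For the lists, only the passing genes of lowest adjusted p per list and comparison were followed in this way. Of these 63 differences, 40 did so. The further list gene differences that passed are not part of this count. The sign of Hdac3 against Ccl21a-high cells changed to 0.069 with RLE scaling, 0.081 in DESeq2, 0.14 with stricter cell filters and 0.14 with the stricter gate, and ran from -0.31 to 0.20 with 1 library left out. With 1 library left out, Hdac3 against cortical cells ran from -0.48 to 0.36, Prdm1 against cortical cells from -0.31 to 1.501 and Prdm1 against dividing cells from -0.37 to 0.11. Other sign changes were Hdac3 against dividing cells (0.20, stricter cell filters) and Prdm1 against fibroblasts (0.39, stricter gate). With epithelial cells holding a blood marker UMI left out, Mta2 (0.15) and Mbd2 (0.23) changed sign against Ccl21a-high cells and Tbl1xr1 against unfiltered fibroblasts (0.0017). The cause was not tested. Against dividing cells 2 genes passed rather than 1 in DESeq2 (Chd4 as well, adjusted p = 0.0398), with no low-count filter (Aire as well, 0.92, adjusted p = 0.0137) and with stricter cell filters (Aire as well, 1.26, adjusted p = 0.0367).

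The share of MHC class II-high cells with Aire moved to 52.9% and 50.2% at 2000 UMIs, 65.1% and 74.2% at 5000 UMIs and 73.4% and 50.1% with no thinning. The co-detection differences in library 1 moved to 12.9 points for Fezf2 (1.77 to 23.5) at 2000 UMIs, to 29.7 (Fezf2), -3.74 (Prdm1) and -7.29 (Hdac3) points at 5000 UMIs and to 38.8 (Fezf2), 43.0 (Irf8), 14.2 (Hdac3) and 16.7 (Chd4) points unthinned. In library 2 they moved to 10.4 (Fezf2) at 2000 UMIs, 32.9 (Fezf2) and 19.1 (Irf8) at 5000 UMIs and 32.1 (Fezf2), 29.2 (Irf8), 9.33 (Hdac3) and 10.3 (Chd4) points unthinned, where cells with Aire were deeper.

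Without the replicate block, the 6 genes gave 4, 2, 4, 1 and 4 calls in the 5 comparisons, as with it, and 4186, 3002, 2611, 1441 and 6612 of all genes passed rather than 4578, 3454, 2894, 1795 and 6922. Leaving out epithelial cells with a blood marker UMI left 285 calls against Ccl21a-high cells and 1941 against fibroblasts, from far fewer epithelial cells. The filter was not applied to fibroblasts, so all 1726 and 1933 of them stayed in. It gave no value for other comparisons or for co-detection at 1000 UMIs. The MHC class II-high and dividing cells left in library 1 were also shallower, and the part of depth in the lost calls was not tested. The stricter gate left too few dividing cells for a value. RLE scaling moved the median of all genes by 0.15 against fibroblasts and 0.11 against cortical cells. Of the Aire partners, 2 (RLE) and 3 (DESeq2) rather than 1 were higher against cortical cells with 1 rather than 2 lower, and 3 rather than 6 were lower against fibroblasts.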
